A study of Mus musculus with 18 samples.

Results

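The 10 genes described here are widely used readouts of endoplasmic reticulum stress: Hspa5, Hsp90b1, Pdia4, Dnajb9, Sdf2l1, Herpud1, Xbp1, Atf4, Ddit3 and Trib3. They were chosen by name, and each was read from the probe sets annotated to that gene alone. All 10 had at least 1 such probe set, 22 in all, among 18193 genes with a probe set of their own and 45037 probe sets tested. Expression was measured in the left ventricle of female wild type C57Bl/6 mice of 3 to 4 months on 18 Affymetrix mouse genome arrays, 3 in each of 6 groups. The groups were non-pregnant sedentary mice (NP/Sed), mice given a voluntary running wheel for 7 days (7EX) or 21 days (21EX), mice in mid-pregnancy (MP), mice in late pregnancy (LP), and mice taken on the day of birth (0PP). All groups share strain, sex and genotype, and none carried a transgene. Each array held RNA pooled from several hearts, so the spread between arrays is a spread between pools and not between single mice.

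The endoplasmic reticulum folds secreted and membrane proteins, and when unfolded proteins build up there its membrane sensors switch on the unfolded protein response. Ire1 splices Xbp1 mRNA, Perk slows translation and favours the synthesis of Atf4, and Atf6 is cleaved to a transcription factor. Their targets include luminal chaperones, components of ER-associated degradation that return misfolded proteins to the cytosol, and, through Atf4 and Ddit3 (Chop), genes of amino acid metabolism and cell death. In heart muscle this response is studied mainly in ischemia, overload and heart failure. The arrays measure total mRNA, so neither Xbp1 splicing nor protein was read here.

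The promoters of 3 of the genes hold exact matches to the sequence elements that Atf6 and Xbp1 are known to bind, and these stretches are shown because the same genes are set beside each other below. They come from RefSeq on mouse build GRCm38.p6, from windows of 250 bases before to 50 bases after the annotated start, and all 10 genes had a window. The ER stress response element ERSE was searched as CCAAT and CCACG with any 9 bases between them, ERSE-II as ATTGG and CCACG with any 1 base between them, and the C/EBP-ATF composite element as TGATGNAA, each on both strands. Capitals mark the match within the printed strand of the gene.
Hspa5, ERSE, chr2:34772005-34772063, plus strand: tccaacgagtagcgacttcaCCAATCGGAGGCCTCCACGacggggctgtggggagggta
Hsp90b1, ERSE, chr10:86705618-86705676, minus strand: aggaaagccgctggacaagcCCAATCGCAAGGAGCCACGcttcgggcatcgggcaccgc
Hsp90b1, ERSE read on the other strand, chr10:86705513-86705571, minus strand: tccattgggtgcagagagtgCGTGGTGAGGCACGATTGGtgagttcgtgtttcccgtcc
Herpud1, ERSE-II, chr8:94386357-94386407, plus strand: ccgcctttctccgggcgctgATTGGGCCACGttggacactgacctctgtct
Herpud1, C/EBP-ATF read on the other strand, chr8:94386297-94386344, plus strand: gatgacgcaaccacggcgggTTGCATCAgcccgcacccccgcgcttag
ERSE was found in 2 of the 10 genes and in 0.119% of 32851 promoter windows, and ERSE-II in 1 of the 10 and in 0.0365% of windows. The C/EBP-ATF element was found in 2 of the 10, Herpud1 and Trib3, against 3.97% of windows. The XBP1-type element TGACGTGG was found in none of the 10 windows and in 0.676% of all windows. CCAAT, which is part of ERSE and, read on the other strand, of ERSE-II, was found in 8 of the 10 and in 37.4% of windows. The 10 genes were chosen by name as readouts of this response, so their share beside that of all windows is no test of enrichment. A match is a description of letters and not evidence of binding.

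The tissue and the arrays were checked first. Cardiomyocyte markers (7 genes, among them Myh6 and Tnnt2) averaged 13.81 to 13.83 on the log2 scale in every group. Atrial markers (4 genes, among them Myl7 and Nppa), which should be low in ventricle, varied most, from 8.31 to 10.59 over single arrays of all groups. All 6 macrophage markers were higher in MP than in NP/Sed, and they averaged 7.99 in NP/Sed against 8.31 to 8.54 in the other groups. B and plasma cell markers, which mark cells rich in ER chaperones, averaged 4.72 to 4.84 across groups. The difference between the 3′ and 5′ actin probe sets, a sign of RNA integrity, ran from 1.05 to 1.36 over the arrays, with 7EX lowest at 1.05 to 1.09 and MP at 1.32 to 1.35. The same difference for Gapdh ran from -0.07 to 0.11 over the arrays. The mean of the actin and Gapdh differences of each array is the 3′ minus 5′ covariate used below. Array medians lay between 4.93 and 5.02.

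Of the 10 genes, 5 passed the test in at least 1 of 9 comparisons (Herpud1, Pdia4, Dnajb9, Sdf2l1 and Ddit3), giving 10 of 90 results with an adjusted p under 0.05 (limma, Benjamini-Hochberg over all probe sets). The other 5 genes, Hspa5, Hsp90b1, Xbp1, Atf4 and Trib3, did not pass at their brightest probe set. Every difference against NP/Sed uses the same 3 control arrays, so those comparisons are not independent of each other.

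**Figure D1:**
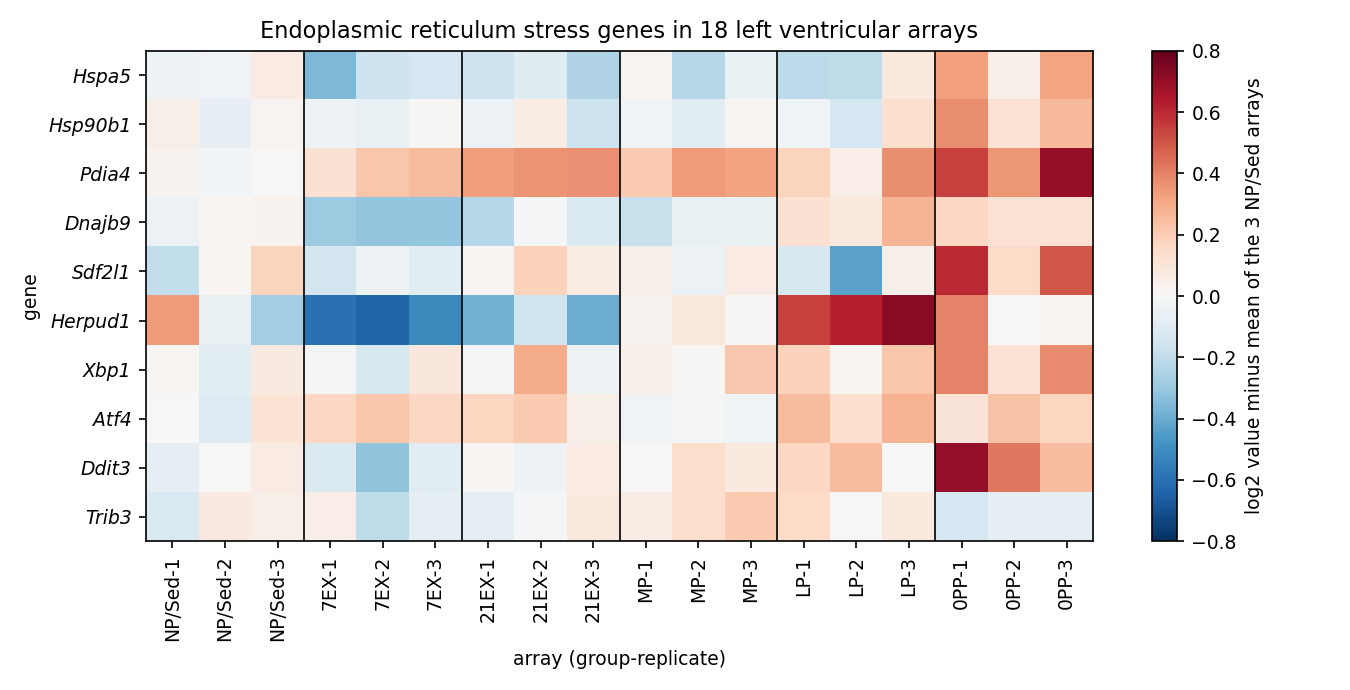
Each row is a gene at its brightest probe set and each column an array, coloured by its log2 value minus the mean of the 3 NP/Sed arrays. Herpud1 was below 0 in all 6 running arrays and highest in the 3 LP arrays, Pdia4 lay above 0 in all 15 arrays outside NP/Sed, and 6 of the 10 genes had their highest group mean in 0PP.

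Herpud1, an ER membrane protein that takes part in ER-associated degradation, had the widest range of the 10 genes between groups. Its log2 values were 10.56, 10.16 and 9.94 in NP/Sed, 9.63, 9.58 and 9.71 in 7EX, and 9.84, 10.06 and 9.82 in 21EX. They were 10.25, 10.31 and 10.23 in MP, 10.77, 10.85 and 10.94 in LP, and 10.62, 10.22 and 10.24 in 0PP. The 3 LP arrays lay above all other 15 arrays and the 3 7EX arrays lay below all other 15. The NP/Sed arrays spread over more than 0.6 (SD 0.31, n = 3), more than any other group of this gene, and they overlapped 21EX, MP and 0PP.

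Herpud1 was up-regulated in LP by 0.63 ± 0.13 (log2 difference ± SE, adjusted p = 0.014, limma), a change of 54.8%. It was the only one of the 10 genes past the test in LP, where 2.36% of all genes passed in either direction. Between MP and LP it rose by 0.59 ± 0.13 (adjusted p = 0.024, limma), again as 1 of 10 genes against 1.91% of all genes. From LP to 0PP the difference was -0.49 ± 0.13 and did not pass (adjusted p = 0.083, limma), although all 3 0PP arrays lay below all 3 LP arrays. A second Herpud1 probe set, 1435626_a_at, followed the first over the 18 arrays (Pearson r = 0.98, a description over arrays that share the 6 groups) and gave 0.73 in LP against NP/Sed (adjusted p = 0.0030) and 0.65 in LP against MP (adjusted p = 0.0074, limma).

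The running groups had the lowest Herpud1 means. In 7EX Herpud1 was lower by 0.58, a log2 difference of -0.58 ± 0.13 (adjusted p = 0.041, limma), the only call among the 10 genes in a comparison where 0.797% of all genes passed. In 21EX the difference was -0.31 ± 0.13 and did not pass (adjusted p = 0.18, limma). The 7EX call was the less firm of the Herpud1 results: it was lost in 9 of 18 fits that left out 1 array, with an adjusted p of 0.020 to 0.14. The arrays whose absence lost it were NP/Sed 1 and 2, 7EX 1, 2 and 3, 21EX 1 and 3, MP 3 and LP 2, and without NP/Sed 1 the difference was -0.42. The LP call was lost without NP/Sed 2, NP/Sed 3 or LP 3 (adjusted p up to 0.093), and the LP against MP call without any of MP 1, 2 and 3, LP 2 or LP 3 (adjusted p up to 0.11). The 3′ minus 5′ covariate, the mean of the actin and Gapdh differences, was on average lowest in 7EX and highest in MP. With it Herpud1 differed by -0.70 in 7EX (adjusted p = 0.11) and by 0.62 in LP (adjusted p = 0.017, limma). Between MP and LP Herpud1 differed by 0.49 (adjusted p = 0.20, limma). Of all genes 6, 408 and 104 passed with the covariate in these comparisons, against 145, 429 and 347 without it.

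**Figure D2:**
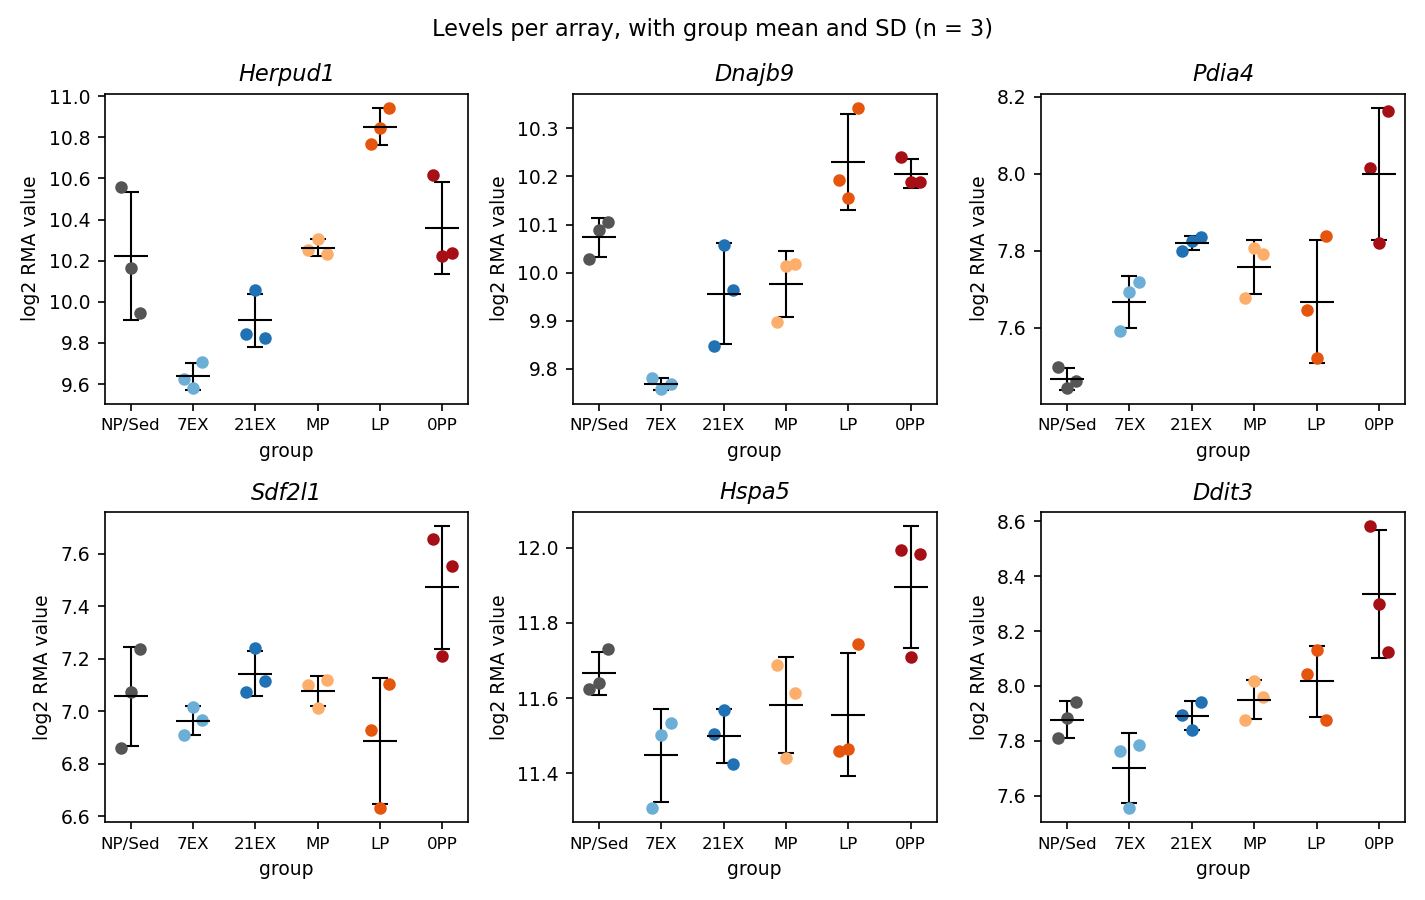
Points are single arrays, horizontal bars group means and whiskers SD (n = 3) of the log2 RMA value, with a separate y axis for each of 6 genes. Herpud1 runs from 9.58 in 7EX to 10.94 in LP, while Sdf2l1, Hspa5, Pdia4 and Ddit3 have their highest group mean in 0PP.

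The contrast of the 3 pregnancy groups (MP, LP and 0PP, 9 arrays) with the 2 exercise groups (7EX and 21EX, 6 arrays) asks where both forms of physiological hypertrophy differ. Herpud1 had a lowest, median and highest value of 10.22, 10.31 and 10.94 in the pregnancy arrays and of 9.58, 9.77 and 10.06 in the running arrays. All 9 pregnancy arrays therefore lay above all 6 running arrays, which held for 0.517% of all genes. The difference was 0.72 ± 0.08 (adjusted p = 4.6e-05, limma), and 0.65 at the second probe set (adjusted p = 4.7e-05, limma).

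Dnajb9 and Ddit3 were also higher in the pregnancy groups than in the running groups, so that 3 of the 10 genes passed, all upward, where 4.08% of all genes passed in either direction and 1.73% upward. Dnajb9 (ERdj4), a luminal co-chaperone of Hspa5, had values of 9.90, 10.19 and 10.34 in the pregnancy arrays (lowest, median, highest) and 9.76, 9.81 and 10.06 in the running arrays. The groups overlapped, with 6 of 9 pregnancy arrays above the highest running array. Its difference was 0.28 ± 0.05 (adjusted p = 0.0023, limma).

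Ddit3, the transcription factor Chop, had values of 7.88, 8.04 and 8.58 in the pregnancy arrays and 7.55, 7.81 and 7.94 in the running arrays, and 7 of 9 pregnancy arrays lay above the highest running array. Its difference was 0.30 ± 0.07 (adjusted p = 0.013, limma), and it was lost without array 2 of 7EX (adjusted p = 0.052). RNA integrity moved with this contrast, since the 3′ minus 5′ actin difference was 1.17 to 1.35 in the pregnancy arrays and 1.05 to 1.22 in the running arrays. With the mean of the actin and Gapdh differences as a covariate Herpud1 kept its call (0.84, adjusted p = 0.0075, limma). Dnajb9 (0.22, adjusted p = 0.23) and Ddit3 (0.31, adjusted p = 0.25, limma) did not. With that covariate 86 of all genes passed in this contrast, against 743 without it. Markers of other cell types also moved in this contrast (limma): 2 of 7 fibroblast markers (Lum and Tcf21) and 1 of 6 endothelial markers (Cdh5) were lower, and 1 each of the 6 macrophage, 4 adipocyte and 3 erythroid markers was higher. Fibroblast list means were 9.75 to 10.27 in the pregnancy arrays and 10.13 to 10.32 in the running arrays, and the part of these cells in the result was not tested. Of the other genes, Hspa5 had a difference of 0.20 ± 0.06 (adjusted p = 0.10) at its brightest probe set and 0.19 (adjusted p = 0.048, limma) at a second, 1427464_s_at.

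Dnajb9 values by array were 10.03, 10.09 and 10.10 in NP/Sed, 9.78, 9.76 and 9.77 in 7EX, and 9.85, 10.06 and 9.96 in 21EX. They were 9.90, 10.01 and 10.02 in MP, 10.19, 10.15 and 10.34 in LP, and 10.24, 10.19 and 10.19 in 0PP. The 7EX arrays lay below all others, yet the difference of -0.31 ± 0.07 against NP/Sed did not pass (adjusted p = 0.061, limma). Dnajb9 and Herpud1 had r = 0.82 over the 18 arrays, but 0.18 once each array was taken relative to its group mean, so the likeness lay between groups and not among replicates.

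In 7EX the arrays of 4 of the 10 genes lay wholly below NP/Sed (Hspa5, Dnajb9, Herpud1 and Ddit3), where 5.56% of all genes did. Pdia4 and Atf4 lay wholly above NP/Sed, where 12.8% of all genes did. The median difference over the 10 genes was -0.08 in 7EX, 0.01 in 21EX, 0.03 in MP, 0.14 in LP and 0.24 in 0PP. Over all genes the median differences in the same order were 0.03, 0.04, 0.03, 0.01 and 0.01.

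**Figure D3:**
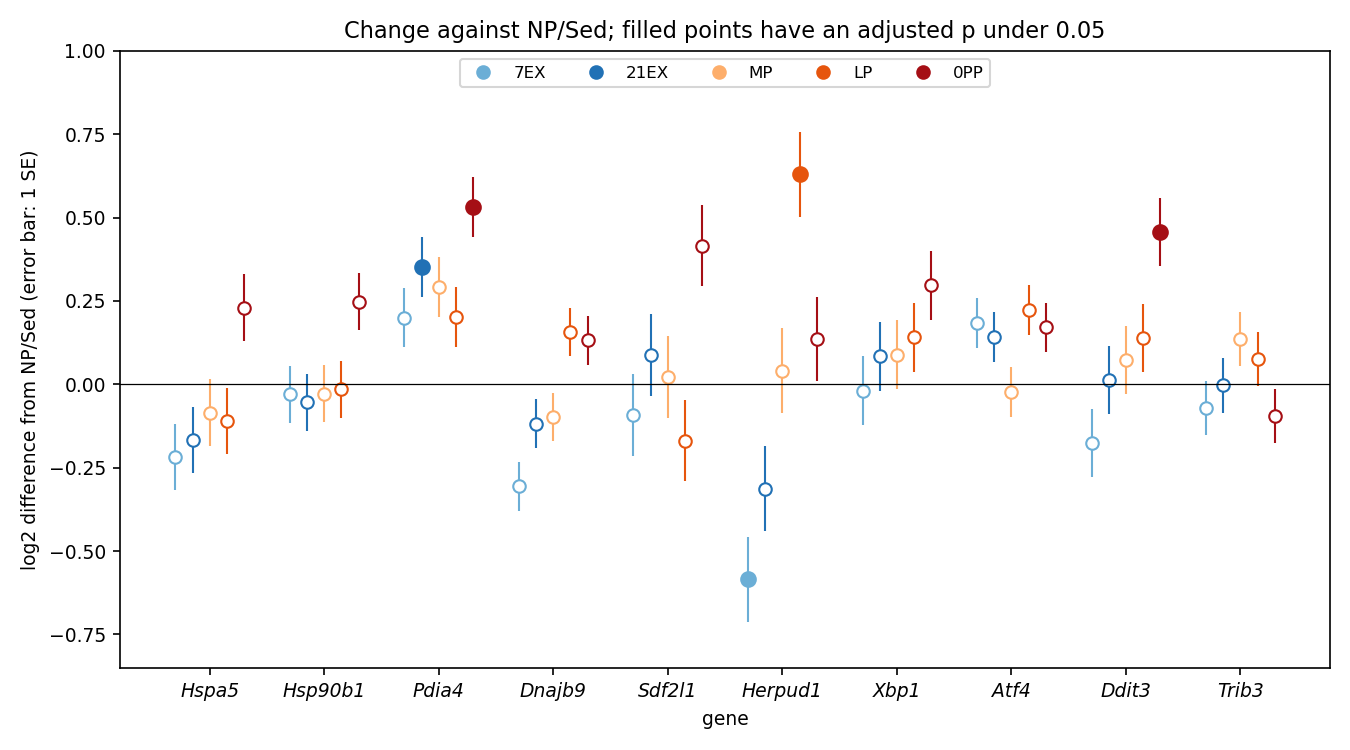
Points give the log2 difference of each group from NP/Sed and bars 1 SE from the limma fit; filled points have an adjusted p under 0.05. The 5 filled points are Herpud1 in 7EX and LP, Pdia4 in 21EX and 0PP, and Ddit3 in 0PP.

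At their brightest probe sets Hspa5, Hsp90b1, Pdia4, Sdf2l1, Xbp1 and Ddit3, 6 of the 10 genes, had their highest group mean on the day of birth. In 0PP against NP/Sed, Pdia4 and Ddit3 passed, 2 of the 10 genes and both up-regulated, where 2.70% of all genes passed in either direction and 2.40% upward. The arrays of 5 of the 10 genes (Hsp90b1, Pdia4, Dnajb9, Xbp1 and Ddit3) lay wholly above NP/Sed, against 15.2% of all genes, and 9 of 10 had a difference above 0, Trib3 being the exception.

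Pdia4 (ERp72), a disulfide isomerase of the ER lumen, had values of 7.50, 7.44 and 7.46 in NP/Sed, 7.59, 7.69 and 7.72 in 7EX, and 7.80, 7.83 and 7.83 in 21EX. The values were 7.68, 7.81 and 7.79 in MP, 7.65, 7.52 and 7.84 in LP, and 8.02, 7.82 and 8.16 in 0PP. All 15 arrays outside NP/Sed lay above all 3 NP/Sed arrays, in running and in pregnancy. In 0PP Pdia4 was higher by 0.53 ± 0.09 (adjusted p = 0.0084, limma), or 44.6%, and it passed in all 18 fits that left out 1 array (0.45 to 0.62).

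In 21EX Pdia4 was higher by 0.35 ± 0.09 (adjusted p = 0.043, limma), the only one of the 10 genes in that group, where 2.67% of all genes passed. That call lay near the threshold and was lost in 11 of 18 such fits (adjusted p 0.031 to 0.11), namely without any single NP/Sed or 21EX array, 7EX 2 or 3, MP 3, LP 1 or 0PP 1. The differences in 7EX (0.20, adjusted p = 0.34), MP (0.29, adjusted p = 0.12) and LP (0.20, adjusted p = 0.33, limma) did not pass. A second, dim Pdia4 probe set with a mean of 3.57 did not follow the first (r = -0.31 over 18 arrays).

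Ddit3 had values of 7.81, 7.88 and 7.94 in NP/Sed, 7.88, 8.02 and 7.96 in MP, 8.04, 8.13 and 7.88 in LP, and 8.58, 8.30 and 8.12 in 0PP. In the running groups they were 7.76, 7.55 and 7.79 (7EX) and 7.89, 7.84 and 7.94 (21EX). The 0PP arrays lay above NP/Sed, and 1 of them fell within the LP range. In 0PP Ddit3 was higher by 0.46 ± 0.10 (adjusted p = 0.030, limma), or 37.3%. The call was lost without any 1 of the NP/Sed arrays or without 0PP 1 or 2 (adjusted p up to 0.091), and without 0PP 1 the difference was 0.33. A second, dimmer Ddit3 probe set, 1443897_at (r = 0.64 with the first over 18 arrays), did not pass in 0PP, with a difference of 0.15 ± 0.18 (adjusted p = 0.72, limma). At that probe set the difference of pregnancy from exercise was 0.40 ± 0.12 (adjusted p = 0.074) and that of 21EX from NP/Sed -0.50 ± 0.18 (adjusted p = 0.14, limma).

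Sdf2l1, a luminal partner of Dnaj co-chaperones, had values of 6.93, 6.63 and 7.11 in LP and 7.66, 7.21 and 7.55 in 0PP. The 2 groups did not overlap, and Sdf2l1 was higher in 0PP than in LP by 0.58 ± 0.12 (adjusted p = 0.026, limma), or 49.9%. It was 1 of the 10 genes past that test, against 1.33% of all genes. The NP/Sed arrays stood at 6.86, 7.07 and 7.24, and the difference of 0PP from NP/Sed, 0.42 ± 0.12, did not pass (adjusted p = 0.079, limma). The call against LP was lost without LP 1, LP 2, 0PP 1 or 0PP 3 (adjusted p up to 0.16, limma). It was also lost with the mean of the actin and Gapdh differences as a covariate (0.53, adjusted p = 0.095, limma). With that covariate 137 of all genes passed, against 242 without it. In LP the actin difference was 1.17 to 1.28 and in 0PP 1.28 to 1.32; its part in the result was not tested beyond that covariate.

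Hspa5 (BiP), the central luminal chaperone and the binding partner of the sensors, had values of 11.62, 11.64 and 11.73 in NP/Sed, 11.46, 11.46 and 11.74 in LP, and 11.995, 11.71 and 11.98 in 0PP. The highest 2 of all 18 arrays were from 0PP, while the other 0PP array fell within the NP/Sed range. The difference was 0.23 (95% interval 0.02 to 0.44, adjusted p = 0.23) against NP/Sed and 0.34 (0.13 to 0.55, adjusted p = 0.15, limma) against LP. Over the 18 arrays the probe set 1427464_s_at followed the first (r = 0.90) and 1447824_x_at did not (r = -0.10). In 0PP against NP/Sed they gave 0.24 (adjusted p = 0.11) and -0.05 (adjusted p = 0.87, limma). The running arrays ranged from 11.31 to 11.57, all below NP/Sed, with differences of -0.22 in 7EX (adjusted p = 0.35) and -0.17 in 21EX (adjusted p = 0.39, limma), which did not pass.

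Hsp90b1 (Grp94), the ER form of Hsp90, had values of 11.04, 10.92 and 11.01 in NP/Sed and of 11.36, 11.11 and 11.25 in 0PP. The groups did not overlap and the difference was 0.25 (95% interval 0.07 to 0.43), which did not pass (adjusted p = 0.13, limma). In the other 4 groups its differences from NP/Sed were between -0.05 and -0.01. The Hsp90b1 probe set 1438040_a_at followed the first only loosely (r = 0.32 over 18 arrays). It fell by 0.91 in 21EX (adjusted p = 0.046, limma), from 11.36, 11.34 and 11.27 in NP/Sed to 10.70, 10.03 and 10.49, so the 2 probe sets of this gene did not give the same result. Its arrays also lay wholly below NP/Sed in 7EX (-0.56), MP (-0.77) and LP (-0.42), without passing. Its highest group mean was in NP/Sed, at 11.32 against 11.06 in 0PP, a difference of -0.26 (adjusted p = 0.61, limma).

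Xbp1, the transcription factor activated by Ire1, had values of 9.84, 9.74 and 9.90 in NP/Sed and of 10.22, 9.94 and 10.20 in 0PP, without overlap. The difference of 0.30 (95% interval 0.08 to 0.51) did not pass (adjusted p = 0.14, limma), and those of the other 4 groups lay between -0.02 and 0.14. Of its other 3 probe sets, 2 followed the first (r = 0.80 and 0.74 over 18 arrays) and 1, with a mean of 6.39, did not (r = -0.01).

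Atf4, the transcription factor downstream of Perk, is regulated to a large extent in translation, which mRNA levels do not show. Its values were 9.75, 9.65 and 9.86 in NP/Sed and ranged from 9.72 to 10.03 in the other 15 arrays. The largest difference from NP/Sed was 0.22 (95% interval 0.07 to 0.38) in LP, which did not pass (adjusted p = 0.16), and neither did that of LP from MP, 0.25 (0.09 to 0.40, adjusted p = 0.11, limma). Its other 2 probe sets did not follow the first (r = 0.23 and -0.35 over 18 arrays). MP had the lowest group mean, with values of 9.72 to 9.75 that lay within the NP/Sed range. Trib3, a pseudokinase gene induced by Atf4 and Ddit3, ranged from 5.84 to 6.25 over all arrays. Its largest difference from NP/Sed was 0.14 (95% interval -0.03 to 0.31) in MP (adjusted p = 0.49, limma). In 0PP, where Ddit3 was higher, Trib3 differed by -0.09 (95% interval -0.26 to 0.08, adjusted p = 0.59).

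No gene of the 10 passed in MP against NP/Sed or in 21EX against 7EX (limma). At an unadjusted p under 0.05, 1 gene (Pdia4) did so in MP, against 2467 of all 18193 genes. In 21EX against 7EX 2 did so (Dnajb9 and Herpud1), against 1241 of all genes. A re-implementation of Cyber-T, the regularised test used in the study, also called 0 of 10 in each. By limma at an adjusted p under 0.05, 1.15% of all genes passed in MP against NP/Sed and 0.00550% in 21EX against 7EX. The 21EX arrays lay wholly above the 7EX arrays in 5 of the 10 genes (Pdia4, Dnajb9, Sdf2l1, Herpud1 and Ddit3), against 10.6% of all genes.

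Over the 18 arrays the 10 genes did not move as 1 block. Hspa5 had r = 0.87 with Hsp90b1 and 0.80 with Sdf2l1, and these stood at 0.76 and 0.76 within groups. Without the 2 arrays farthest from the median of Hspa5, both from 0PP, they were 0.68 and 0.52. Hsp90b1 had r = 0.83 with Xbp1 (0.85 within groups). Hspa5 had r = 0.35 with Herpud1, -0.01 with Atf4 and 0.56 with Ddit3, the last at -0.28 within groups. All r are descriptions over arrays that share 6 groups and 1 normalization.

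**Figure D4:**
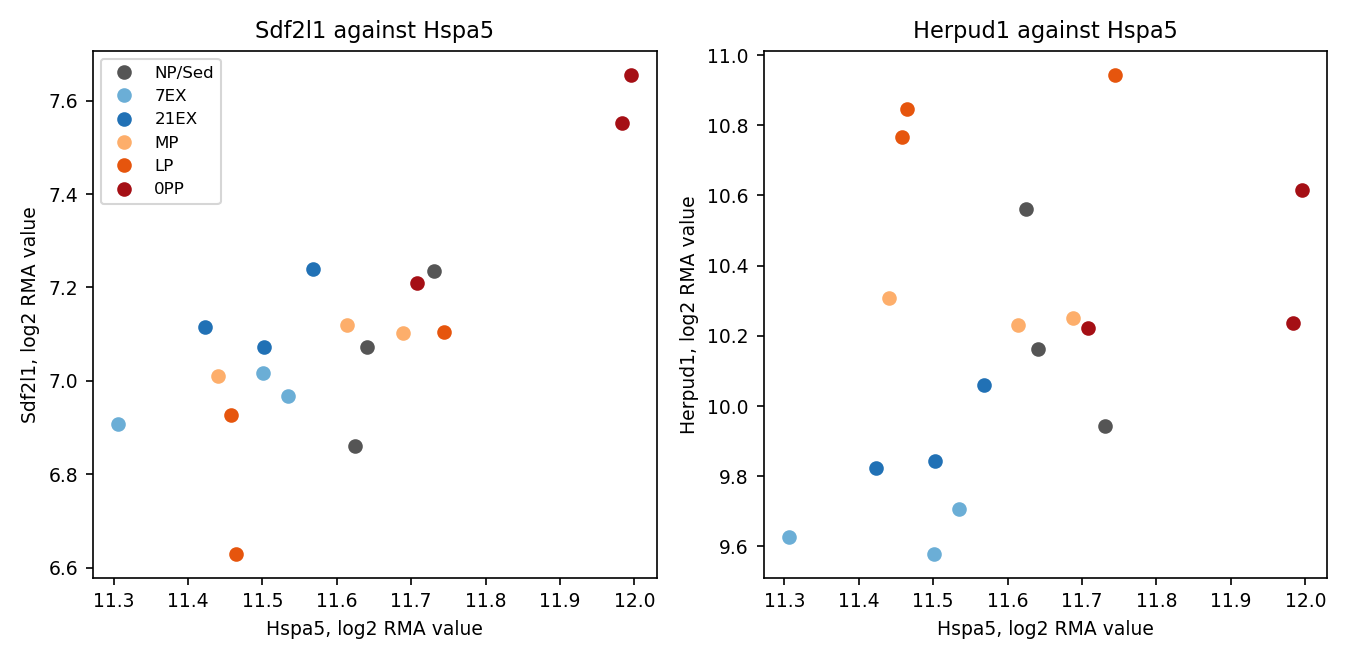
Each point is an array, with the log2 value of Hspa5 on the x axis and of Sdf2l1 (left) or Herpud1 (right) on the y axis, coloured by group. In the left panel 2 of the 3 0PP arrays stand apart at the upper right (r = 0.80), and in the right panel the 3 LP arrays lie above the rest, at Hspa5 values of 11.46, 11.46 and 11.74 (r = 0.35).

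The genes most like Hspa5 over the 18 arrays, among 11591 genes with a mean log2 value of at least 5, were Nmrk2 (r = 0.86), Rnft1 (0.80), Calr (0.79), Hyou1 (0.78), Pdia6 (0.77) and Ccn2 (0.76). Calr encodes the luminal chaperone calreticulin, Hyou1 an ER member of the Hsp70 family and Pdia6 another disulfide isomerase. The 6 most like Atf4 were Atad2b (0.87), Psmd12 (0.87), Ciao1 (0.85), Eif5a (0.85), Mterf3 (0.85) and Ckm (0.84), none of them in the lists of ER stress genes used here.

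Beyond the 10 genes, 37 other ER chaperones and folding enzymes were measured. In 0PP against NP/Sed 3 were higher and 0 lower by limma: Manf by 0.59 (adjusted p = 0.017), Creld2 by 0.46 (adjusted p = 0.042) and Fkbp14 by 0.44 (adjusted p = 0.044). Of all genes 2.40% were higher in that comparison. Manf and Creld2 encode ER-resident proteins known as targets of the unfolded protein response, and Fkbp14 a prolyl isomerase of the ER. The median over the 37 genes was 0.15 against 0.01 over all genes, and the 0PP arrays of 15 of the 37 lay wholly above NP/Sed, against 15.2% of all genes. Cyber-T also called 3 higher and 0 lower, and at an unadjusted p under 0.05, 18 were higher and 1 lower, against 2463 and 1165 of all 18193 genes. Among macrophage markers 3 of 6 were also higher in 0PP, with list means of 8.35 to 8.49 against 7.89 to 8.07 in NP/Sed, and their part in these results was not tested.

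Against LP, 4 of the 37 were higher in 0PP: Manf by 0.74 (adjusted p = 0.0034), Serpinh1 by 0.58 (adjusted p = 0.012), Hyou1 by 0.45 (adjusted p = 0.010) and Ppib (limma), in a comparison where 1.33% of all genes passed in either direction. Serpinh1 is the collagen chaperone Hsp47, and Ppib acts in collagen folding. Among 7 fibroblast markers 3 were higher in the same comparison (Col3a1 by 0.75, adjusted p = 0.0081, limma), with list means of 9.75 to 9.87 in LP and 10.07 to 10.22 in 0PP. The list did not move as 1: 5 of the 7 had a difference above 0, and the lowest was -0.17. At an unadjusted p under 0.05 (limma), 1 of the 7 was lower, against 896 of all 18193 genes. The part of fibroblasts in the folding genes was not tested. In whole ventricle, a different number of cells of a type and a different amount of RNA per cell cannot be told apart.

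Genes of ER translocation and N-glycosylation showed the same direction. Of 23 measured, 3 were higher in 0PP than in NP/Sed, against 2.40% of all genes: Ostc, a subunit of the oligosaccharyltransferase, by 0.44 (adjusted p = 0.011), and the translocon-associated Ssr2 by 0.40 (adjusted p = 0.030) and Ssr1 by 0.36 (adjusted p = 0.015, limma). The 0PP arrays of 15 of the 23 lay wholly above NP/Sed, against 15.2% of all genes. A difference above 0 was found for 22 of the 23 and for 9631 of all 18193 genes, and the list median was 0.18. Against LP, 2 of the 23 were higher, where 1.33% of all genes passed in either direction. These were Sec61b (0.40, adjusted p = 0.045), a subunit of the translocation channel, and Ostc (0.34, adjusted p = 0.042, limma). The median over the list was 0.18. Ostc was also higher in 21EX (0.33, adjusted p = 0.030, limma), the only 1 of the 23 to pass there, where 2.67% of all genes passed.

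Of the other 24 genes of ER-associated degradation, 1 passed in 21EX and in 0PP, the ubiquitin ligase gene Syvn1. It was higher in 21EX (0.40, adjusted p = 0.012) and in 0PP (0.33, adjusted p = 0.022, limma). Of all genes 2.67% passed in 21EX and 2.70% in 0PP. None of the 24 passed in LP, where Herpud1 was highest and 2.36% of all genes passed. In LP, 4 of the 24 were higher and 0 lower at an unadjusted p under 0.05, against 1843 and 961 of all 18193 genes. Cyber-T called 0 of the 24 in LP. The list median in LP was 0.07 against 0.01 over all genes. None of 9 sensors and kinases of the stress responses (among them Ern1, Eif2ak3 and Atf6) passed in any comparison by limma or by Cyber-T. At an unadjusted p under 0.05, 4 of the 9 were higher and 0 lower in 0PP, against 2463 and 1165 of all 18193 genes. The same counts held in 21EX, against 2811 and 864 of all genes.

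**Figure D5:**
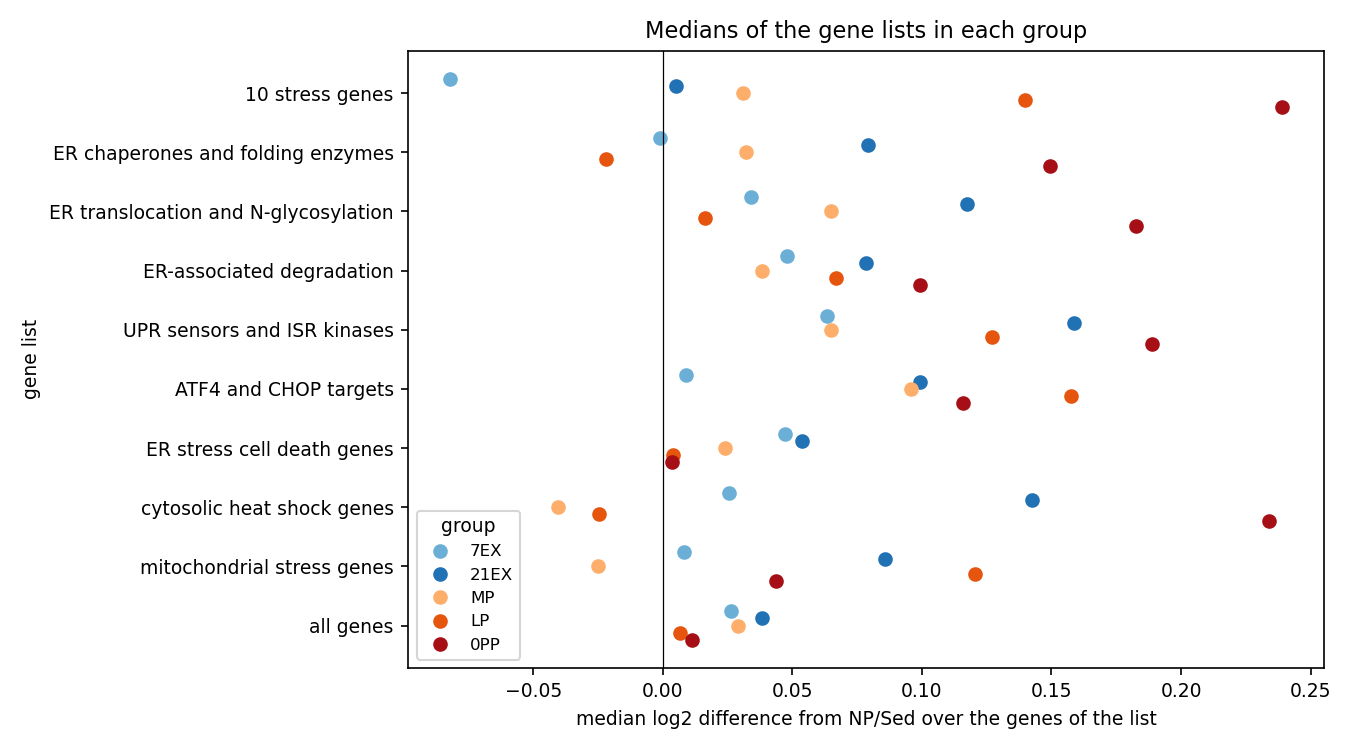
Points give the median log2 difference from NP/Sed over the genes of each list, by group, with all 18193 genes in the lowest row. In 0PP the medians of the 10 stress genes (0.24) and of cytosolic heat shock genes (0.23) are the highest, and in 7EX the 10 genes have the lowest median (-0.08).

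Among 38 targets of Atf4 and Chop, 4 were higher in 0PP than in NP/Sed, where 2.40% of all genes were. Psat1, an enzyme of serine synthesis, was higher by 0.75 (adjusted p = 0.0497), the transcription factor gene Atf5 by 0.46 (adjusted p = 0.013) and the methionyl-tRNA synthetase gene Mars1 by 0.34 (adjusted p = 0.030, limma). Psat1 was also higher in LP (0.78, adjusted p = 0.042), Jdp2 in MP (0.57, adjusted p = 0.023) and Atf5 in 21EX (0.35, adjusted p = 0.039, limma). Each was the only 1 of the 38 to pass in its comparison, a share of 2.63%. Of all genes 2.36% passed in LP, 1.15% in MP and 2.67% in 21EX. Between the pregnancy and running groups 5 of the 38 were higher, against 1.73% of all genes, led by Cebpb (0.83, adjusted p = 0.00019), Atf3 (0.63, adjusted p = 0.0062) and Jdp2 (0.51, adjusted p = 0.00054, limma), all transcription factor genes. Sesn2, a stress-induced regulator of mTORC1, was lower (-0.24, adjusted p = 0.023, limma), the only 1 of the 38, against 429 of all 18193 genes.

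The pro-apoptotic Bcl2l11 (Bim) was the only 1 of 12 cell death genes to pass in 0PP. It fell by 0.58 against NP/Sed (adjusted p = 0.033) and by 0.58 against LP (adjusted p = 0.046, limma). Of all 18193 genes, 55 were lower in the first comparison and 84 in the second. Ddit3 was higher in 0PP than in NP/Sed. Cytosolic heat shock genes, which respond to unfolded proteins outside the ER, were measured for comparison. Of 14, 3 were higher in 0PP than in NP/Sed, against 2.40% of all genes: Hspa1b by 0.67 (adjusted p = 0.023), Hspa1a by 0.61 (adjusted p = 0.010) and Hsp90aa1 by 0.44 (adjusted p = 0.025, limma). Hspa1a and Hspa1b are nearly identical in sequence and may share signal. The median over the 14 was 0.23 against NP/Sed and 0.30 against LP, so the ER genes were not alone among chaperones in 0PP. None of 12 mitochondrial stress genes passed in 0PP by limma or Cyber-T, and 0 had an unadjusted p under 0.05, against 3628 of all 18193 genes.

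In 7EX no gene of these 8 lists passed by limma. At an unadjusted p under 0.05 the Atf4 and Chop targets had 5 higher and 5 lower, and the chaperones 3 higher and 4 lower. Of all 18193 genes, 1808 were higher and 631 lower at that limit. Cyber-T called 1 higher and 1 lower among the Atf4 and Chop targets and none in the other 7 lists. Over all genes it called 311 higher and 117 lower.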

How the data were processed

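The deposited values are log2 expression values that the authors made by RMA (background correction, quantile normalization and probe set summary) across all 18 arrays, as given per the labels and the study's methods, with no filter on low values. Array number limits the precision; no read depth applies. After removal of 64 controls, 45037 probe sets were fitted with limma 3.58.1 in R 4.3.3, the 6 groups in 1 model, with 9 comparisons. Within each comparison, p-values of every probe set tested entered the Benjamini-Hochberg adjustment, and the threshold was 0.05. A gene was counted at its probe set of highest mean. Probe sets were named from the platform annotation: 34945 had 1 gene, 932 several and 9160 none. The 10 genes and all lists were chosen with earlier results of these data known. The named genes were the 10 genes, up to 3 past the test per list and comparison with the largest difference, and, outside the 10, the 6 most like Hspa5 and Atf4. Single genes outside this rule (Ppib and marker genes) were named after their values were seen.

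Tested on simulated data for 0PP against NP/Sed with 45037 probe sets, the fit recovered 5, 19, 48 and 49 of 50 changes of 0.3, 0.5, 0.8 and 1.2 on the log2 scale. Changes of 0.3 and 0.5 were thus often missed in that setting. The changed probe sets were picked at random and all others held no change, unlike in the data. The share missed among the 10 genes was therefore not measured. As alternatives, the study's own test, Cyber-T, was re-implemented (window 101, prior weight 10), and its limit of a 75% change was tried separately. The other alternatives were the groups compared fitted alone, an intensity trend, a filter on mean level, repeated quantile normalization, median centring and other probe set choices. Also used were the replicate number as a block, the mean of the actin and Gapdh 3′ minus 5′ differences as a covariate, and each array left out in turn. The labels do not say whether pools were hybridised in batches, and p-values measure the spread between pools. Some list genes had no probe set of their own and were not analysed here: 169 of 179 listed genes were measured.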

Additional observations from a re-analysis of the deposited data

Results flagged for a closer look

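These results are differences between conditions that were themselves tested in 1 fit, so that the effect in 1 condition differed from that in another against the same NP/Sed arrays. Herpud1 was higher in LP than in MP by 0.59 and higher in the pregnancy groups than in the exercise groups by 0.72. In the same contrast of pregnancy with exercise, Ddit3 was higher by 0.30 and Dnajb9 by 0.28, and the 3′ minus 5′ actin difference was higher as well, at 1.17 to 1.35 against 1.05 to 1.22. Sdf2l1 was higher in 0PP than in LP by 0.58. Groups of 3 arrays are too small for a test of single arrays that stand apart.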

How the results depend on the processing

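Each of the 10 single-gene calls was recomputed under 30 alternatives, 300 values in all: all 300 kept their direction, 233 their side of the threshold and 0 reversed. In many of these the direction could not change. The 75% limit, Cyber-T, the groups compared fitted alone, an intensity trend, the mean level filter and the replicate block leave the difference as it is. So does leaving out an array of a group not compared. The kept direction is no test there. The counts of the 10 genes past the test were 1 in 7EX, 1 in 21EX, 0 in MP, 1 in LP and 2 in 0PP against NP/Sed, 1 in 0PP against LP, 1 in LP against MP, 0 in 21EX against 7EX and 3 in pregnancy against exercise. With the limit of a 75% change every count was 0, since no call reached that size. With the groups compared fitted alone the counts were 0 in 7EX, 21EX, LP and 0PP against LP, and 1 in 0PP. An intensity trend gave 2 in 7EX, 0PP against LP and LP against MP. A mean level of at least 5 gave 2 in 7EX and LP against MP, and Cyber-T gave 2 in 0PP against LP. Repeated quantile normalization gave 0 in 21EX and 1 in 0PP, and median centring gave 0 in 7EX and 3 in 0PP. The probe set with the smallest F-test p gave 0 in 7EX and 2 in 21EX, any probe set gave 2 in 21EX, these and the intensity trend each gave 4 in pregnancy against exercise, and the mean of a gene's probe sets gave 2 in 7EX, 0PP against LP and LP against MP and 0 in 21EX and 0PP. With the mean of the actin and Gapdh 3′ minus 5′ differences as a covariate the counts were 0 in 7EX, 21EX, 0PP against LP and LP against MP. With it the count was 1 in pregnancy against exercise. The cause of these changes was not tested. Leaving out each array in turn gave 0 to 2 in 7EX, 0 to 1 in 21EX, 0 to 1 in LP, 1 to 2 in 0PP, 0 to 2 in 0PP against LP, 0 to 1 in LP against MP and 2 to 4 in pregnancy against exercise, and 0 throughout in MP and in 21EX against 7EX. Pdia4 in 0PP, and Dnajb9 and Herpud1 in pregnancy against exercise, passed in all 18 of these fits. The replicate numbers did not pair the arrays: same-numbered arrays of different groups had a mean correlation of -0.03 over 45 pairs (7 above 0.1). With the replicate number as a block the count was 0 in 7EX (Herpud1, adjusted p = 0.055) and no other count changed.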
